A study of Homo sapiens with 8 samples.

Results

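The YAP1 and TEAD arm of the Hippo pathway was followed through a short-term and a long-term knockdown of the transcription factor ETS1 in carcinoma cells. It was represented by the coactivator genes YAP1 and WWTR1 (which encodes TAZ), the DNA-binding factors TEAD1 and TEAD4, the target genes CTGF (now named CCN2), CYR61 (now named CCN1) and ANKRD1, and the regulators AMOTL2, LATS2 and AJUBA. These 10 genes were taken by symbol from the 56638 symbols that both count tables list, and all 10 passed the filter on low counts in both tables. SCC25, an established squamous cell carcinoma line from the tongue, was profiled by RNA sequencing in 4 groups of 2 libraries each. The siRNA control cells received non-targeting siRNAs, and the ETS1 siRNA cells received a pool of 4 siRNAs directed at ETS1, both by transient transfection. The shCON cells stably carried a lentiviral non-targeting hairpin, and the shETS1 cells a single lentiviral hairpin directed at ETS1, both under puromycin selection. All cells were grown with serum and hydrocortisone. The siRNA and shRNA libraries differ at once in the kind of RNA interference, in the time since ETS1 was lost and in their count table. They also differ in their content of structural and mitochondrial RNAs. These differences cannot be told apart.

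The Hippo pathway couples cell contact and cell shape to transcription. When its kinase cassette is active, LATS1 and LATS2 phosphorylate YAP1 and TAZ, which are then retained in the cytoplasm or degraded. Otherwise YAP1 and TAZ enter the nucleus and bind TEAD factors, which recognise short GGAATG-type elements and switch on genes of the matrix, the cytoskeleton and growth. The pathway is known for its role in the growth and invasion of squamous epithelia. Much of its control acts on the phosphorylation and location of proteins, which RNA levels do not measure.

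Windows around transcription starts were searched for the TEAD element, since CTGF and ANKRD1 are classical TEAD targets of which ANKRD1 passed the test with the hairpin and CTGF did not, and AMOTL2 rose. A RefSeq table on GRCh38.p14 holds a window for 7 of the 10 genes, each from 250 bases before to 50 bases after a start. The letters GGAATG were searched on both strands, and 14% of all 35116 windows hold them at least once, 1.37% at least 2 times and 0.128% at least 3 times. The window of CTGF held 3 copies, at -169, -104 and -95 from the start, that of ANKRD1 held 2, at -220 and -128, and a window of AMOTL2 held 1 at -69 on the opposite strand. The 250 bases upstream of these starts are printed 5′ to 3′ along the gene, with each TEAD element in capitals. They lie on the minus strand at chr6:131951373-131951622 for CTGF, at chr10:90921088-90921337 for ANKRD1 and at chr3:134374448-134374697 for AMOTL2.
CTGF: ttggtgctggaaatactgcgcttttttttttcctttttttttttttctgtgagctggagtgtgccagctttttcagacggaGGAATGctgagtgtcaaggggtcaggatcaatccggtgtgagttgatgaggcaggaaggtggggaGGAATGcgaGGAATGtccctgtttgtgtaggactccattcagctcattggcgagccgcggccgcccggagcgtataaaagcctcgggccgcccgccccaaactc
ANKRD1: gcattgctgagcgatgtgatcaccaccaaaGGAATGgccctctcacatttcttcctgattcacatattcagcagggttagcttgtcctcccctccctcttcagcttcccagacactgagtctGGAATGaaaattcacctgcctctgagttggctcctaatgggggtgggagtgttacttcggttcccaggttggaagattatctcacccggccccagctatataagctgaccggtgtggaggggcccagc
AMOTL2: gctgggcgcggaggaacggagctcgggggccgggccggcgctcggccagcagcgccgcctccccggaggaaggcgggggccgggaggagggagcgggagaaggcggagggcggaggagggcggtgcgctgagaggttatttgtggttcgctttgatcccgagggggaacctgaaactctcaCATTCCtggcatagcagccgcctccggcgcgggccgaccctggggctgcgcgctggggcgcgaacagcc
YAP1 held 1 copy at -162, LATS2 1 copy at 10 and a window of AJUBA 1 copy at -59, while both windows of WWTR1 held none. The letters CGGAAG, a core that ETS factors recognise and that 19.5% of windows hold, were present in 1 of the windows, at -175 in the other window of AJUBA. The letters TGANTCA, searched for AP-1 with any base at N and held by 7.71% of windows, were present in that of ANKRD1 at -195, as TGATTCA. Such matches are descriptions of letters and not evidence of binding.

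ETS1 RNA was low in both knockdowns. It stood at 289 and 248 CPM (reads of a gene relative to the TMM-scaled library size, within each table) in siRNA control and at 17.4 and 13.2 for ETS1 siRNA, so that it fell by 4.13 on the log2 scale (SE 0.19, adjusted p = 0.000173, edgeR quasi-likelihood test with Benjamini-Hochberg adjustment over all genes, as for every adjusted p given here). In the hairpin lines it stood at 82.3 and 72.1 CPM for shCON and at 9.76 and 11.1 for shETS1, so that it fell by 2.89 (SE 0.10, adjusted p = 3.82e-13). Total counts ran from 15954616 to 25953213 per library. The squamous markers KRT5, KRT14 and TP63 were expressed in every library, and PECAM1, a defining endothelial gene, was at 0 in all 8. PECAM1 was not matched to a single gene of the annotation used here, and whether its reads could be counted was not tested. The 4 leukocyte markers summed to at most 4.01 CPM and the 3 endothelial markers to at most 0.756. The fibroblast markers DCN, LUM and PDGFRA summed to between 22.1 and 30.6 CPM in the siRNA libraries, to 225 and 256 in the shCON libraries and to 1937 and 2037 in the shETS1 libraries, and 3 of 3 rose in shETS1. The 6 squamous markers summed to 14602 and 19318 CPM for siRNA control and to 22238 and 26008 for ETS1 siRNA. They summed to 15028 and 15145 for shCON and to 24883 and 25180 for shETS1. After siRNA 0 of the 6 passed. With the hairpin 4 rose, while TP63 (log2 fold change -0.40, adjusted p = 0.00127) and SFN (-0.17, adjusted p = 0.0693) fell. Non-polyadenylated structural RNAs took 5.61% and 6.63% of counts in shCON, 12.3% and 9.64% in shETS1, and at most 0.00339% in the siRNA libraries. Mitochondrial RNAs took 0.820% and 0.768% in shCON, 0.508% and 0.714% in shETS1, and 0% in the siRNA libraries. The reason for this difference between the tables was not tested. The shifts between shCON and shETS1 accompany every hairpin result given here. The part of the fibroblast and squamous markers in those results was not tested, and without the structural and mitochondrial RNAs the same 7 members passed. In bulk RNA, fewer cells of a type and less RNA per cell cannot be told apart. The study calls the siRNA replicates biological, and nothing says that the shRNA replicates came from separate cultures, so that p-values measure only the spread between these libraries.

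After siRNA, 0 of the 10 genes passed the test at an adjusted p under 0.1, against 3.41% of all 14742 genes tested (1.13% higher and 2.27% lower). DESeq2 also called 0. With edgeR 1 gene, AJUBA, had an unadjusted p under 0.05, as did 2721 of all 14742 genes. After the stable hairpin 7 of 10 passed, of which 2 rose (AJUBA and AMOTL2) and 5 fell (YAP1, WWTR1, TEAD1, TEAD4 and ANKRD1), where 60.6% of 16481 genes passed (29.7% higher and 30.9% lower). The share of members that passed was thus near that of all genes. The median log2 fold change of the 10 genes was -0.10 after siRNA and -0.34 after the hairpin, beside medians of 0.0018 and 0.00066 over all genes tested. Both ETS1 siRNA libraries lay outside the range of the controls for 4 of 10 genes, against 51.9% of all genes, and both shETS1 libraries for 7 of 10, against 76.6%. The plot of CPM by library shows the 8 values of each gene.

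**Figure D1:**
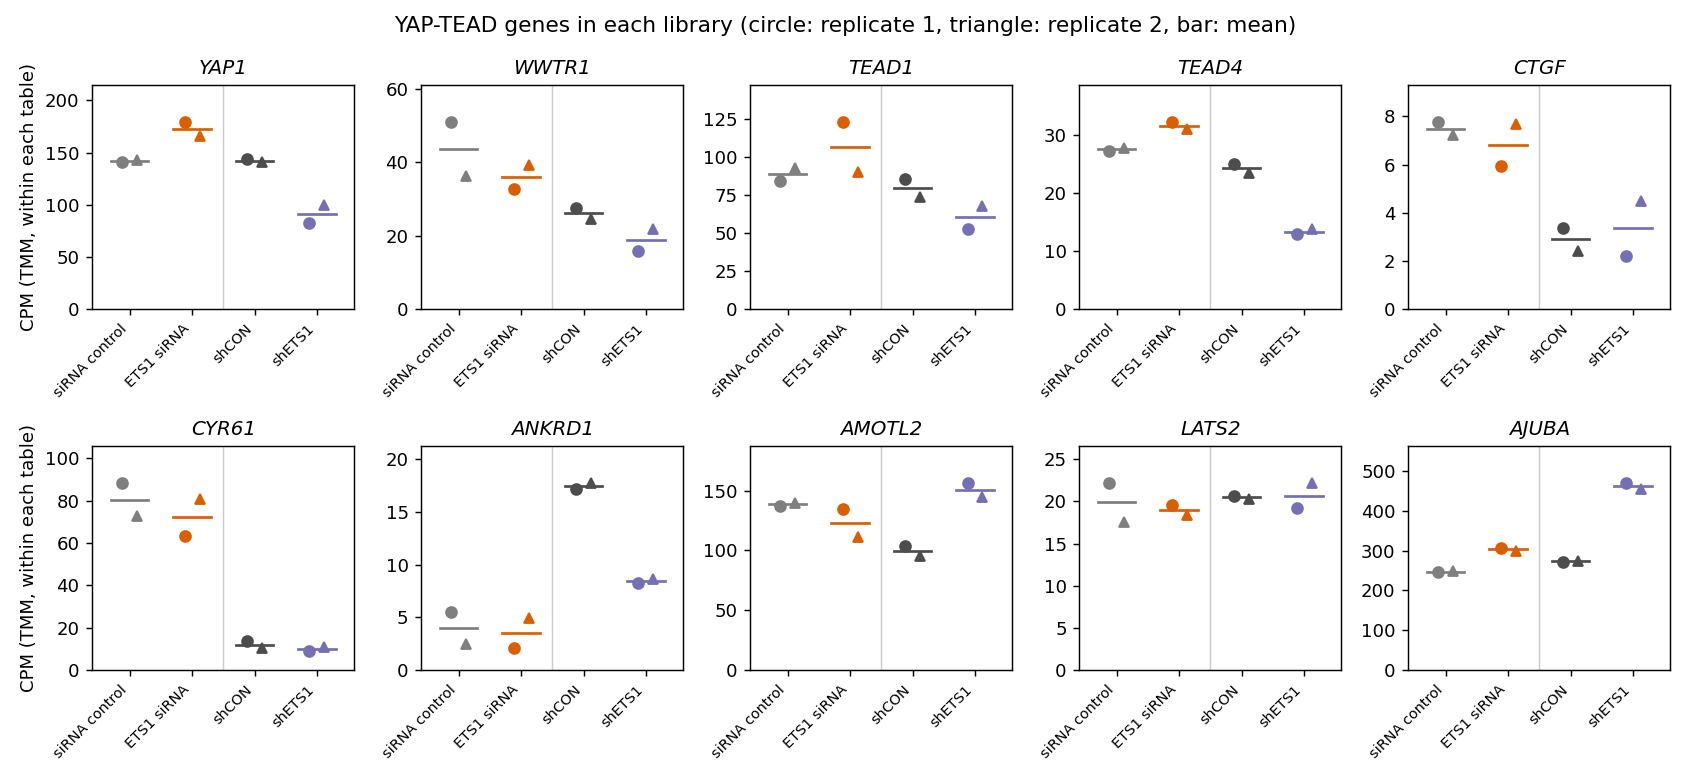
CPM of the 10 genes in each library, with TMM scaling within each table; circles are replicate 1, triangles replicate 2 and bars the mean of 2 libraries. The shETS1 points lie below the shCON points for YAP1, WWTR1, TEAD1, TEAD4 and ANKRD1 and above them for AMOTL2 and AJUBA, while the ETS1 siRNA points lie outside the range of their controls for 4 genes.

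YAP1 (ENSG00000137693, chr11:101981178-102104155 on GRCh37) encodes the main coactivator of the pathway. Its CPM was 141 and 142 for siRNA control, 179 and 166 for ETS1 siRNA, 143 and 141 for shCON, and 82.9 and 99.3 for shETS1. Both ETS1 siRNA libraries were above their controls, and both shETS1 libraries were below theirs. YAP1 fell by 0.64 on the log2 scale with the hairpin (SE 0.084, adjusted p = 4.78e-06), to 0.641 of the control level. After siRNA the log2 fold change of 0.28 (SE 0.13, 95% interval -0.0077 to 0.57) did not pass (adjusted p = 0.280). YAP1 shares 628 exonic bases with an antisense long non-coding RNA, and since the use of strand in counting is not stated, reads of the 2 cannot be told apart.

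WWTR1 (ENSG00000018408, chr3:149235022-149454501) encodes TAZ, the paralogue of YAP1. It stood at 50.9 and 36.2 CPM for siRNA control, 32.6 and 39.2 for ETS1 siRNA, 27.6 and 24.5 for shCON, and 15.8 and 21.8 for shETS1. The siRNA groups overlapped, and the shETS1 libraries were both below shCON. With the hairpin it fell by 0.47 on the log2 scale (SE 0.13, adjusted p = 0.00433), and its siRNA value of -0.28 had an interval of -0.69 to 0.13 (adjusted p = 0.442). It shares 756 exonic bases with the antisense gene WWTR1-AS1. Per length, in TPM (reads per exonic length, scaled to a common sum in each library), YAP1 made up 81.2% ± 3.74 of the summed level of the pair in siRNA control (SD, n = 2), 86.4% ± 2.14 in ETS1 siRNA, 87.8% ± 0.757 in shCON and 86.6% ± 1.15 in shETS1. YAP1 was thus the more abundant transcript of the pair in every group.

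TEAD1 (ENSG00000187079, chr11:12695968-12966284) encodes a DNA-binding partner of YAP1 and TAZ. It measured 84.5 and 92.7 CPM for siRNA control, 123 and 89.9 for ETS1 siRNA, 85.6 and 73.5 for shCON, and 52.9 and 67.5 for shETS1. Replicate 1 of ETS1 siRNA was above both siRNA control libraries, replicate 2 lay within the control range, and the shETS1 libraries were below shCON. The hairpin effect was -0.40 (SE 0.10, adjusted p = 0.00301) on the log2 scale, and the siRNA effect of 0.26 (interval -0.13 to 0.65) did not pass (adjusted p = 0.446).

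TEAD4 (ENSG00000197905, chr12:3068496-3149842), a paralogue of TEAD1, measured 27.3 and 27.8 CPM for siRNA control, 32.2 and 31.0 for ETS1 siRNA, 25.1 and 23.5 for shCON, and 12.9 and 13.8 for shETS1. The ETS1 siRNA libraries were slightly above and the shETS1 libraries far below their controls. It fell by 0.86 on the log2 scale with the hairpin (SE 0.10, adjusted p = 1.80e-06), to 0.551 of the control level, whereas the siRNA value was 0.20 (interval -0.089 to 0.49, adjusted p = 0.435).

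TEAD2 and TEAD3, the remaining TEAD genes, were not both called. TEAD3 fell with the hairpin by 0.54 on the log2 scale (SE 0.12, adjusted p = 0.000804), from 15.9 and 14.3 CPM for shCON to 10.2 and 10.7 for shETS1. TEAD2 was at 25.9 and 25.8 CPM for shCON and at 22.5 and 23.5 for shETS1, a log2 difference of -0.17 with an interval of -0.36 to 0.025 that did not pass (adjusted p = 0.132), although with library size alone as the scaling it did (-0.29, adjusted p = 0.0185). Its exons overlap those of CD37 on the opposite strand. After siRNA the log2 values were 0.20 for TEAD2 (adjusted p = 0.523) and 0.35 for TEAD3 (adjusted p = 0.187). In TPM, TEAD4 took 33.6% ± 0.212 of the family total in shCON and 26.0% ± 0.636 in shETS1 (SD, n = 2 each), while TEAD2 took 27.4% ± 1.41 and 34.1% ± 1.35, so that the leading TEAD transcript of shCON was TEAD4 and that of shETS1 was TEAD2. TEAD1 took 23.4% ± 1.30 and 24.8% ± 2.52, a difference within the spread between replicates. In the siRNA table TEAD4 took 30.4% ± 1.17 in control and 29.2% ± 1.10 after ETS1 siRNA, and TEAD3 took 29.9% ± 0.898 and 31.8% ± 0.0354. The order of TEAD3 and TEAD4 was thus not separated beyond the replicate spread in siRNA control.

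**Figure D2:**
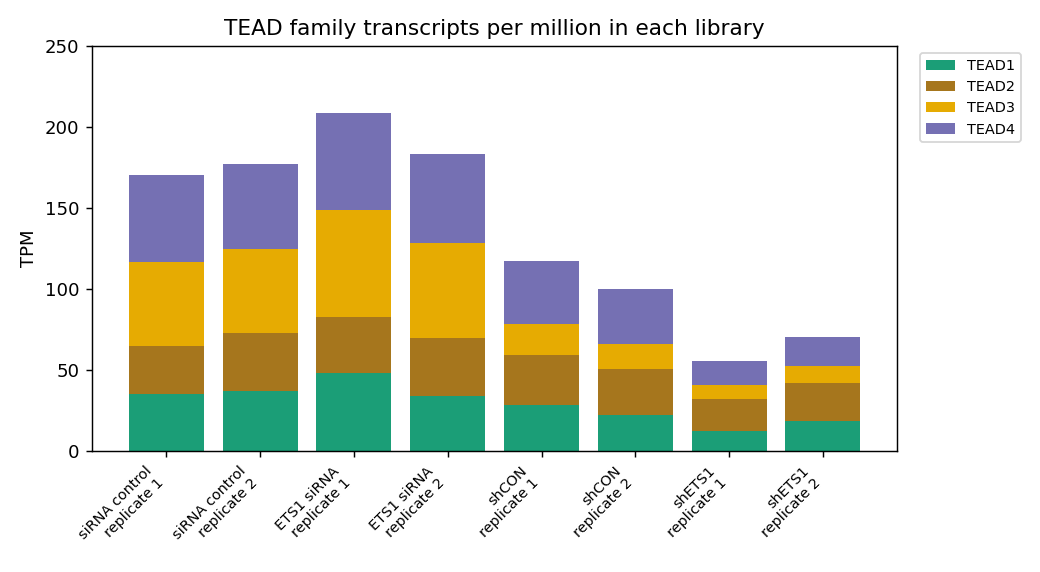
TPM of TEAD1, TEAD2, TEAD3 and TEAD4 stacked for each of the 8 libraries, without error bars because each bar is a single library. The shETS1 bars are lower than the shCON bars and TEAD4 takes the smaller share of them, 26.0% on average against 33.6%. The TPM sum of each library includes the structural RNAs RN7SL2 and RMRP, but not RN7SK, RN7SL1 or RPPH1, which had no exonic length. RN7SL2 averaged 144500 TPM in shCON and 204900 in shETS1, and RMRP 53640 and 82420. That scaling lowers the TPM of other genes in shETS1 relative to shCON.

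Of the 3 classical targets ANKRD1 fell with the hairpin, and none passed after siRNA. CTGF (ENSG00000118523, chr6:132269316-132272512), a matricellular protein and the gene with 3 TEAD elements upstream, was expressed at a low level. It stood at 7.76 and 7.23 CPM for siRNA control, 5.94 and 7.69 for ETS1 siRNA, 3.38 and 2.43 for shCON, and 2.22 and 4.48 for shETS1, from 51 to 156 reads per library. Both comparisons overlapped, and the shETS1 libraries bracketed the shCON libraries. The log2 fold changes were -0.14 (interval -0.59 to 0.32, adjusted p = 0.760) after siRNA and 0.22 (interval -0.34 to 0.78, adjusted p = 0.506) after the hairpin. Leaving out a library leaves its group with a single one, which is then assumed to vary like the libraries of the other groups in the fit. On that assumption the hairpin value was 0.62 (adjusted p = 0.0126) without shETS1 replicate 1 and -0.39 without shETS1 replicate 2, so that its sign rested on single libraries. CTGF shares 278 exonic bases with LINC01013 on the opposite strand.

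CYR61 (ENSG00000142871, chr1:86046444-86050272), a related matricellular protein, had CPM of 88.4 and 72.7 for siRNA control, 63.2 and 81.0 for ETS1 siRNA, 13.6 and 10.3 for shCON, and 8.85 and 10.7 for shETS1. Knockdown and control overlapped in both tables. The log2 fold change was -0.16 (interval -0.53 to 0.21, adjusted p = 0.644) after siRNA and -0.29 (interval -0.59 to 0.016, adjusted p = 0.101) after the hairpin. With 1 library in an arm, the hairpin value was -0.47 without shCON replicate 2 and -0.43 without shETS1 replicate 2. Over the alternatives run it ranged from -0.47 to -0.087, so that its size rested on single libraries.

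ANKRD1 (ENSG00000148677, chr10:92671853-92680844), an ankyrin repeat protein of the nucleus, has the TEAD letters 2 times upstream. Its CPM was 5.54 and 2.43 for siRNA control, 2.04 and 4.98 for ETS1 siRNA, 17.2 and 17.7 for shCON, and 8.28 and 8.60 for shETS1. The hairpin groups were tight and apart, whereas each siRNA group had a high and a low library. ANKRD1 fell by 1.05 on the log2 scale with the hairpin (SE 0.11, adjusted p = 6.35e-07), to 0.484 of the control level, and was the target of the 3 that passed. After siRNA the value of -0.19 had the widest interval of the members, -1.26 to 0.89 (adjusted p = 0.866).

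The replicates of the siRNA table differed widely for some members, in opposite directions in the 2 groups. Replicate 2 minus replicate 1 of ANKRD1 was -1.04 in siRNA control and 1.11 for ETS1 siRNA on the log2 scale, larger in size than for 98.5% and 98.0% of genes of like level. The same differences were -0.28 and 0.36 for CYR61 and -0.48 and 0.26 for WWTR1. For all 3 genes siRNA control replicate 1 was thus above replicate 2, and ETS1 siRNA replicate 1 was below replicate 2. In the shRNA table the largest such difference was 0.87 for CTGF in shETS1, larger than for 99.8% of genes of like level. Of the members called with the hairpin, WWTR1 (0.45), TEAD1 (0.35) and YAP1 (0.26) were also wide in shETS1. These exceeded 97.98%, 97.75% and 94.89% of genes of like level. For TEAD4, ANKRD1, AMOTL2 and AJUBA in shETS1 the shares were 37.65%, 19.27%, 65.95% and 32.38%.

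**Figure D3:**
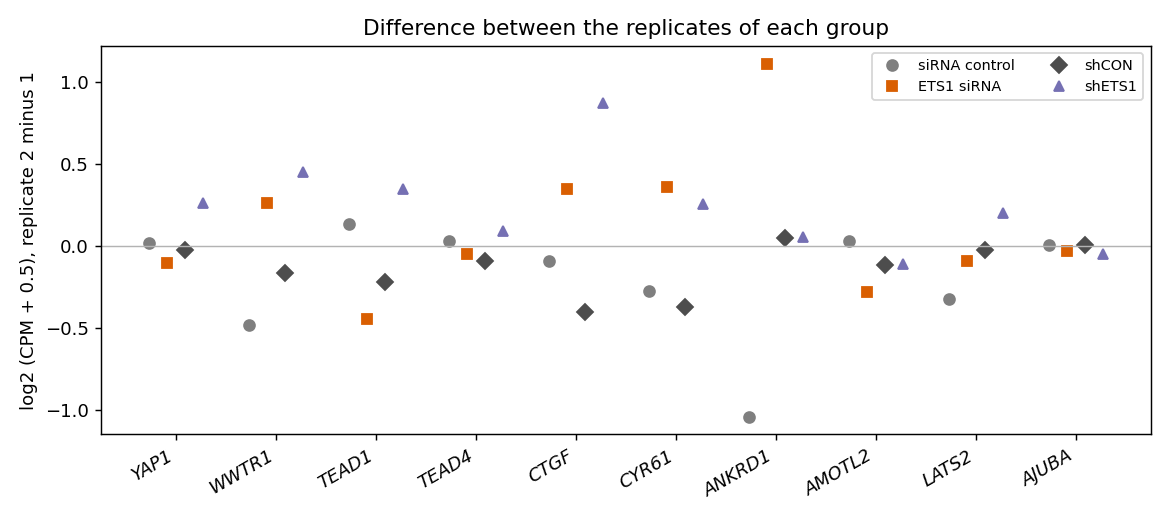
Difference between replicate 2 and replicate 1 of each group, on the scale of log2 (CPM + 0.5), for the 10 genes; markers give the group and the line is at no difference. ANKRD1 has the widest pair, -1.04 in siRNA control and 1.11 for ETS1 siRNA, and AJUBA lies near 0 in every group.

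Of the 3 regulators, which act on YAP1 and TAZ in different ways, AJUBA and AMOTL2 rose with the hairpin and LATS2 did not pass. AJUBA (ENSG00000129474, chr14:23440386-23451760), a LIM protein that restrains LATS kinases, stood at 247 and 248 CPM for siRNA control, 307 and 299 for ETS1 siRNA, 272 and 273 for shCON, and 469.5 and 454 for shETS1. Both knockdowns lay above their controls with little spread between replicates. AJUBA rose by 0.76 on the log2 scale with the hairpin (SE 0.075, adjusted p = 1.75e-07), or 1.69-fold. The siRNA value of 0.29 (interval 0.021 to 0.57) did not pass (adjusted p = 0.245).

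AMOTL2 (ENSG00000114019, chr3:134074189-134094321), an angiomotin family scaffold that binds YAP1 outside the nucleus, is itself a TEAD target. Its CPM was 137 and 139.6 for siRNA control, 135 and 111 for ETS1 siRNA, 103 and 95.1 for shCON, and 156 and 144 for shETS1. The ETS1 siRNA libraries were both below and the shETS1 libraries both above their controls. It rose by 0.60 with the hairpin on the log2 scale (SE 0.076, adjusted p = 3.55e-06), or 1.52-fold, and the siRNA value was -0.17 (interval -0.50 to 0.16, adjusted p = 0.561). AMOTL2 shares 187 exonic bases with the pseudogene RPL39P5 on its own strand, so that reads there are uncertain.

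LATS2 (ENSG00000150457, chr13:21547175-21635725), a kinase that phosphorylates YAP1 and TAZ, measured 22.2 and 17.6 CPM for siRNA control, 19.6 and 18.4 for ETS1 siRNA, 20.7 and 20.3 for shCON, and 19.2 and 22.1 for shETS1. Each knockdown overlapped its own control. The log2 fold changes were -0.069 (interval -0.44 to 0.30, adjusted p = 0.858) and 0.012 (interval -0.20 to 0.23, adjusted p = 0.932) after siRNA and the hairpin.

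Compared per length within a group, AJUBA was the most abundant of the 10 transcripts throughout, from 159 ± 9.74 TPM in shCON to 217 ± 15.9 in shETS1 (SD, n = 2). Of the genes with at least 1 TPM, between 92.5% and 96.4% were lower than AJUBA. In siRNA control YAP1 (98.1 ± 1.58), CYR61 (95.3 ± 15.2) and AMOTL2 (93.3 ± 0.981) came next and were not separated beyond the spread of CYR61. They were followed by TEAD4 (52.8 ± 0.525) and TEAD1 (36.1 ± 1.54). WWTR1 (22.8 ± 5.94), LATS2 (15.5 ± 2.87), CTGF (14.01 ± 1.01) and ANKRD1 (9.79 ± 5.59) were the lowest, and each overlapped its neighbour within their SDs. The order of the 10 means was the same in ETS1 siRNA, from 212 ± 9.64 for AJUBA to 7.98 ± 4.54 for ANKRD1. In shCON the order after AJUBA was YAP1 (77.1 ± 5.82), AMOTL2 (52.5 ± 6.35), TEAD4 (36.6 ± 3.98), ANKRD1 (33.4 ± 1.36) and TEAD1 (25.5 ± 4.34), with TEAD4 and ANKRD1 within each other's spread. LATS2 (12.5 ± 0.945), CYR61 (11.1 ± 2.81) and WWTR1 (10.7 ± 1.57) were not separated, and CTGF (4.28 ± 1.25) was last. In the shETS1 order AMOTL2 (64.1 ± 2.65) stood above YAP1 (40.3 ± 9.01), which was the reverse of shCON, and TEAD4 (16.3 ± 2.33), TEAD1 (15.7 ± 4.20) and ANKRD1 (13.1 ± 1.63) came next without separation. CYR61 thus ranked near YAP1 in the siRNA table and near WWTR1 in the shRNA table, and ANKRD1 ranked last in the one and near TEAD4 in the other. Levels of the 2 tables were scaled separately and were not tested against each other. The TPM sums also hold RN7SL2 and RMRP, whose levels differ between shCON and shETS1, so that TPM is read within a group.

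The effect of the hairpin was then set against that of the siRNAs in a single fit of all 8 libraries, as the shRNA log2 fold change minus the siRNA log2 fold change. That fit takes a shared spread for both tables. Its common dispersion was 0.0109, against 0.0192 in the siRNA and 0.00402 in the shRNA table. The SEs and p-values of the difference rest on that pooling. Of the 10 genes 5 differed at an adjusted p under 0.1, against 34.8% of 17190 genes (15.1% higher and 19.7% lower). The difference was -1.08 for TEAD4 (SE 0.14, adjusted p = 0.000427), -0.94 for YAP1 (SE 0.15, adjusted p = 0.00116) and -0.68 for TEAD1 (SE 0.23, adjusted p = 0.0502). For AMOTL2 it was 0.75 (SE 0.16, adjusted p = 0.00519) and for AJUBA 0.44 (SE 0.12, adjusted p = 0.0177). YAP1, TEAD1 and TEAD4 thus had lower values under the hairpin than under the siRNAs, and both regulators had higher ones. The TEAD1 difference was not called without siRNA control replicate 1 (-0.63, adjusted p = 0.137), without ETS1 siRNA replicate 1 (-0.45, adjusted p = 0.110), without shCON replicate 1 (-0.57, adjusted p = 0.182) or without shETS1 replicate 1 (-0.49, adjusted p = 0.203). For the remaining 5 genes the intervals held 0, at -0.79 to 0.37 for WWTR1, -0.58 to 1.24 for CTGF, -0.70 to 0.39 for CYR61, -1.99 to 0.23 for ANKRD1 and -0.36 to 0.48 for LATS2. Over the alternatives run, the ANKRD1 difference ranged from -1.63 to -0.073. It was -1.63 without siRNA control replicate 1 and -1.36 without ETS1 siRNA replicate 1, which each leave a group with 1 library. The difference for ETS1 itself was 1.23 (SE 0.21, adjusted p = 0.00170), its residual level being relatively higher under the hairpin.

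**Figure D4:**
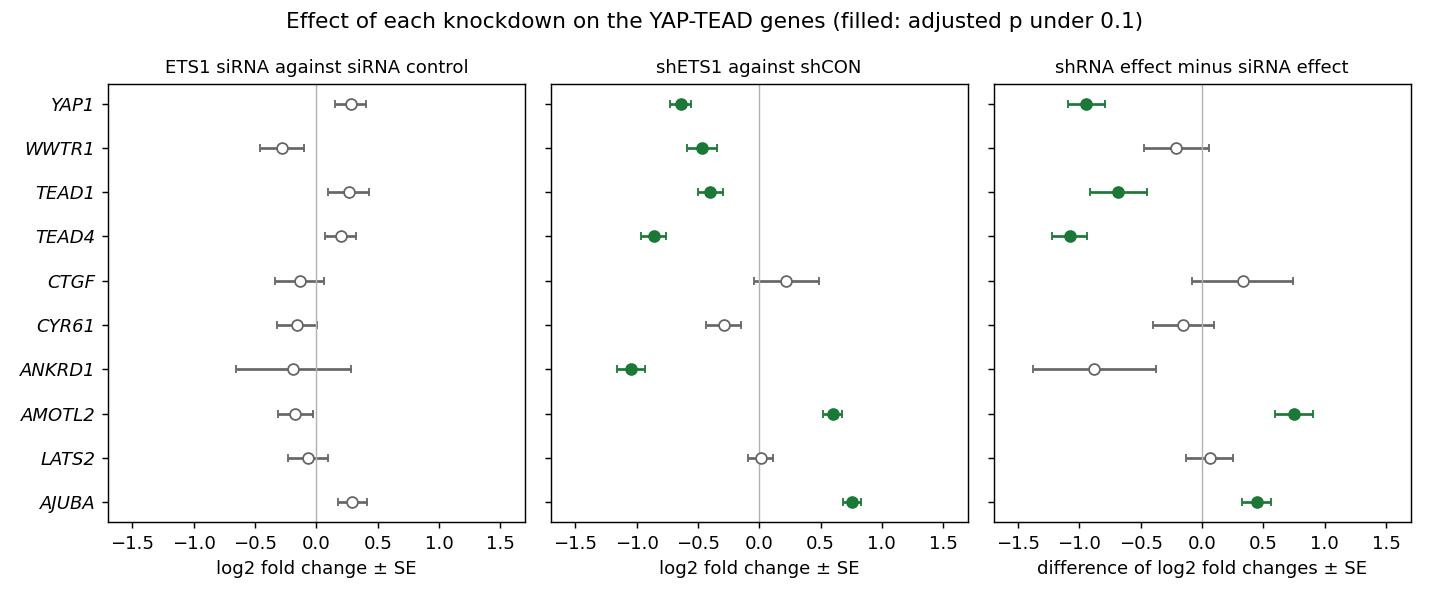
Log2 fold change of the 10 genes after siRNA, after the hairpin, and the difference between them; bars are standard errors and filled points have an adjusted p under 0.1. No point is filled after siRNA, 7 are filled after the hairpin and 5 in the difference, with TEAD4 lowest at -1.08 and AMOTL2 highest at 0.75.

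The VGLL genes encode cofactors that bind TEAD in place of YAP1. VGLL3 had 21.1 and 19.4 CPM for shCON and 48.0 and 54.3 for shETS1, and VGLL4, which represses TEAD targets, had 15.9 and 17.3 for shCON and 20.0 and 20.1 for shETS1. Both rose, VGLL3 by 1.34 (SE 0.093, adjusted p = 2.41e-09) and VGLL4 by 0.27 (SE 0.10, adjusted p = 0.0312) on the log2 scale. The call of VGLL4 was lost with DESeq2 (adjusted p = 0.122), with library size alone (0.15, adjusted p = 0.214) and without shCON replicate 1 (0.21, adjusted p = 0.265), which leaves that group with 1 library, and its exons overlap those of ATG7 on the opposite strand. After siRNA VGLL3 was at -0.29 (adjusted p = 0.386) and VGLL4 at 0.47 (adjusted p = 0.153). VGLL1 and VGLL2 had at most 7 reads in a library and were not tested.

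The upstream pathway moved in both directions under the hairpin. Of 21 genes of the kinase cassette and its upstream regulators 17 passed, 7 higher and 10 lower, with a median log2 fold change of -0.023, where 60.6% of all genes passed (29.7% higher and 30.9% lower). MAP4K4, a kinase that can activate LATS, fell by 1.91 (adjusted p = 6.98e-12), from 337 and 325 CPM for shCON to 80.7 and 95.4 for shETS1. NF2, the tumour suppressor merlin, fell by 0.69 (adjusted p = 4.21e-07) and MOB1B, a LATS coactivator, fell by 0.85 (adjusted p = 4.46e-06). FRMD6 rose by 0.75 (adjusted p = 1.93e-07), the protocadherin FAT4 by 0.98 (adjusted p = 2.00e-05) and the LATS-related kinase STK38 by 0.46 (adjusted p = 6.57e-05). Of 16 tested scaffolds and binding partners of YAP1 and TAZ, 12 fell and the other 4 did not pass, with a median of -0.34, where 30.9% of all genes fell. Among them were LIMD1, an Ajuba family protein, at -0.96 (adjusted p = 1.84e-06), the adaptor YWHAE at -0.94 (adjusted p = 1.33e-07) and the kinase CSNK1D at -0.76 (adjusted p = 1.72e-06). LIMD1 thus moved against its relative AJUBA. Counts of LIMD1, CSNK1D, MAP4K4 and MOB1B may include reads of overlapping genes.

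Of 20 further genes known as YAP1 and TEAD targets 19 passed under the hairpin, 8 higher and 11 lower, with a median of -0.33, beside the 60.6% of all genes that passed (29.7% higher and 30.9% lower). The ectonucleotidase NT5E fell by 1.51 on the log2 scale (adjusted p = 3.53e-11) and the receptor kinase AXL by 1.06 (adjusted p = 1.01e-08). In the opposite direction CCDC80, a matrix protein, rose by 2.99 (adjusted p = 2.56e-14), from 16.3 and 17.0 CPM to 131 and 133, the peptide endothelin EDN1 by 2.83 (adjusted p = 1.06e-12) and the RNA-binding protein RBMS3 by 1.26 (adjusted p = 1.25e-08). Targets of the list therefore did not share a direction. RBMS3 and AXL share exonic bases with other genes.

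After siRNA few genes of these lists passed, as did 3.41% of all genes (2.27% lower). In the kinase list 1 of 20 tested genes fell, MOB1B, from 25.0 and 21.2 CPM to 9.43 and 12.0 (log2 fold change -1.11, SE 0.18, adjusted p = 0.0311). Of the 20 further targets 3 fell. THBS1, a matrix glycoprotein, went from 5915 and 5096 CPM to 3216 and 2960 (-0.83, adjusted p = 0.0273), CRIM1 from 243 and 205 to 144 and 125 (-0.74, adjusted p = 0.0607), and the ligand gene TGFB2 from 102 and 100.3 to 69.6 and 70.3 (-0.53, adjusted p = 0.0923). MOB1B and THBS1 also fell with the hairpin, at -0.85 and -0.70 (adjusted p = 1.99e-05 for THBS1), whereas CRIM1 was at 0.16 (adjusted p = 0.0943, past the threshold of 0.1 but not of 0.05) and TGFB2 was at -0.070 (adjusted p = 0.445). The difference between the knockdowns passed for CRIM1 (0.87, adjusted p = 0.00295) and TGFB2 (0.44, adjusted p = 0.0280). It did not pass for MOB1B (0.23, adjusted p = 0.493) or THBS1 (0.11, adjusted p = 0.697). THBS1, CRIM1 and TGFB2 each share exonic bases with a gene on the opposite strand, and the use of strand in counting is not described. None of the 16 scaffolds and none of the 4 TEAD and VGLL genes passed after siRNA with edgeR. In each of these lists 2 genes had an unadjusted p under 0.05, as did 2721 of all 14742 genes tested. DESeq2 called 4 genes of the kinase list, 1 scaffold, 0 TEAD or VGLL genes and 4 further targets, while its share of all genes was 5.41%. Without ETS1 siRNA replicate 1 the counts were 5 in the kinase list, 4 scaffolds and 7 further targets, with 9.61% of all genes called. Without siRNA control replicate 1, where 0.476% of all genes were called and the spread came from the ETS1 siRNA pair alone, none of the 4 passed. The log2 fold changes were then -0.98 for MOB1B (adjusted p = 0.154), -0.72 for THBS1 (adjusted p = 0.369), -0.61 for CRIM1 (adjusted p = 0.491) and -0.52 for TGFB2 (adjusted p = 0.541). TGFB2 was also lost without siRNA control replicate 2 (adjusted p = 0.199) and, with CRIM1, without ETS1 siRNA replicate 2 (adjusted p = 0.119 and 0.102).

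**Figure D5:**
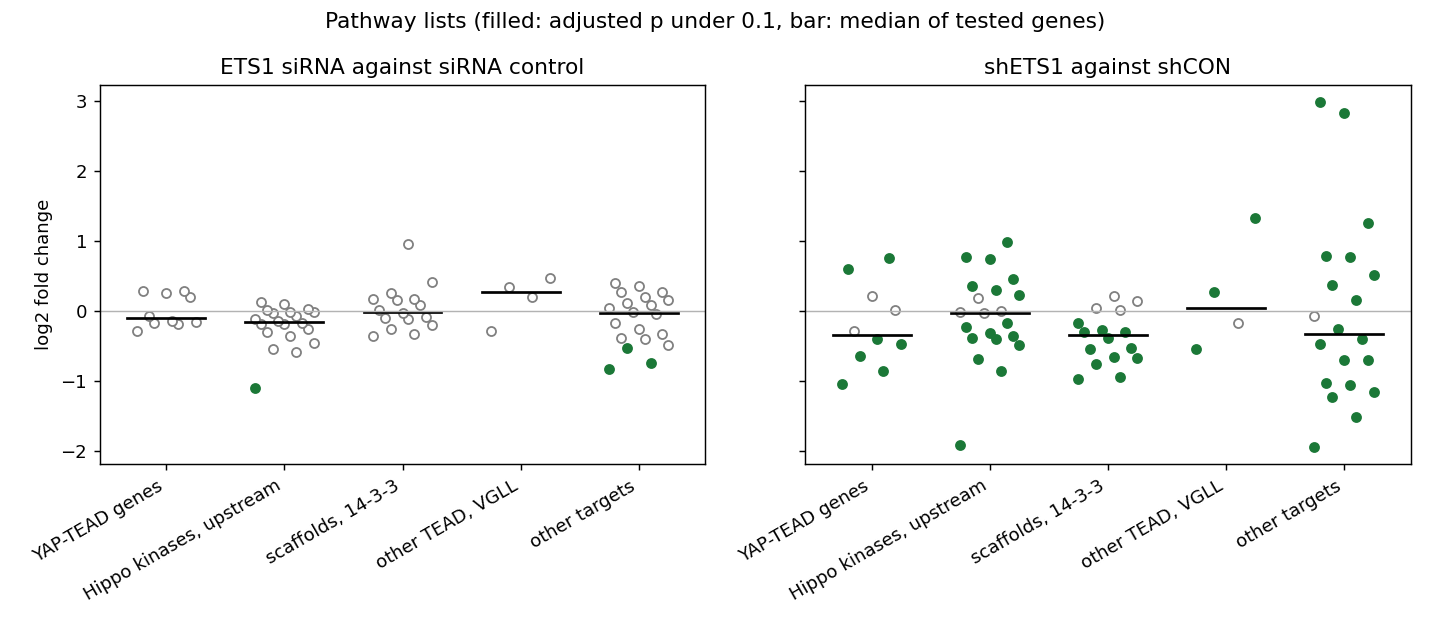
Log2 fold changes of every tested gene of the 10 genes and of 4 other pathway lists after siRNA and after the hairpin; filled points have an adjusted p under 0.1 and bars are medians. After siRNA 4 points are filled, all below 0, and after the hairpin the scaffold list has 12 filled points below 0 and none above, while the further targets have 8 filled points above 0 and 11 below.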

How the data were processed

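RNA of SCC25 cells was sequenced as 50 bp single-end reads from TruSeq libraries. The submitters' processing notes name TopHat2 2.1.1 and Bowtie2 2.2.6 on GRCh37 and featureCounts 1.5.0. The deposited values are raw counts per gene symbol, in a table for each knockdown, and neither strand use nor multi-mapped reads are described. No column was left out. Knockdown and matching control libraries were compared in edgeR 4.0.16 (R 4.3.3) by the two-sided quasi-likelihood F-test, with TMM scaling, filterByExpr and a Benjamini-Hochberg threshold of 0.1. The difference between knockdowns was fitted on all 8 libraries. TPM used exonic lengths of GENCODE genes on GRCh37. Of 56638 symbols, 33522 matched a current and 1838 an older symbol, 407 matched several genes and 20871 matched none. The fits were also run on counts simulated with their own dispersions, and the outcome is not reported here.

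Genes named were the 10 members, ETS1, every tested TEAD or VGLL gene, and up to 3 called genes per direction of each other list by adjusted p. One gene that this rule names is not reported here. The members and lists were chosen with earlier results of these data known. Total counts were 15954616 to 25953213 per library, and the common dispersion was 0.0192 in the siRNA and 0.00402 in the shRNA table, so that small changes were less detectable after siRNA. Alternatives were DESeq2 1.42.0, its size factors, library size alone, removal of structural and mitochondrial RNAs, 3 other filters on low counts, a threshold of 0.05, a replicate block, all libraries in a single fit and leaving out each library. DESeq2 was the authors' own tool.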

Additional observations from a re-analysis of the deposited data

Results flagged for a closer look

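The effect of the hairpin differed from that of the siRNAs by the test of the difference itself for ETS1 and for 5 of the 10 genes. As the shRNA log2 fold change minus the siRNA log2 fold change, the difference was 1.23 for ETS1, -0.94 for YAP1, -0.68 for TEAD1, -1.08 for TEAD4, 0.75 for AMOTL2 and 0.44 for AJUBA. YAP1, TEAD1, TEAD4 and AMOTL2 had values of opposite sign in the 2 knockdowns, and the siRNA values of these 4 did not pass. ETS1 and AJUBA had the same sign in both.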

How the results depend on the processing

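The 7 hairpin calls among the 10 genes held under every alternative run, with the highest adjusted p at 0.0616 for WWTR1 and 0.0632 for TEAD1. With libraries left out in turn, between 7 and 8 genes were called after the hairpin, 0 after siRNA and 4 to 5 in the difference. With all 8 libraries in one fit, 1 gene (AJUBA, adjusted p = 0.0605) was called after siRNA, beside 12.6% of all genes. The siRNA total of 502 genes varied most: it was 97 with a replicate block, 190 at an adjusted p under 0.05, 797 with DESeq2, 795 with the study's filter, 1466 without a filter, 2166 with all 8 libraries, 72 without siRNA control replicate 1 and 1478 without ETS1 siRNA replicate 1. No label says that a replicate number marks a shared culture, and deviations of same-numbered libraries correlated at -0.57 in the siRNA and -0.25 in the shRNA table. The replicate block called 0 of the 10 genes after siRNA, 7 after the hairpin and 4 in the difference. The shares of all genes were 0.658%, 55.7% and 24.8%. The block lost TEAD1 in the difference (-0.67, adjusted p = 0.141), and of the 4 siRNA calls in the pathway lists it kept THBS1. Crossed pairing, chosen after seeing the data, called 3238 genes after siRNA, 10923 after the hairpin and 7466 in the difference. Library size alone moved the hairpin median of all genes to -0.12. Signs turned in values that were not called, and the cause was not tested. With a library left out, the siRNA values ranged from -0.99 to 0.54 for ANKRD1, -0.22 to 0.11 for LATS2, -0.34 to 0.039 for CTGF and -0.35 to 0.013 for CYR61. The hairpin values ranged from -0.39 to 0.62 for CTGF and -0.10 to 0.10 for LATS2, and the differences from -0.13 to 0.20 for LATS2, -0.34 to 0.060 for CYR61, -0.49 to 0.027 for WWTR1 and -0.28 to 0.77 for CTGF. LATS2 also turned after the hairpin with library size alone (-0.11) and with all 8 libraries (-0.0066), and in the difference with library size alone (-0.024). CYR61 was called after the hairpin with library size alone (-0.41, adjusted p = 0.0615), without a filter (adjusted p = 0.0843) and with crossed pairing (-0.29, adjusted p = 0.0199). TEAD2 was called after the hairpin with library size alone (-0.29, adjusted p = 0.0185) and with crossed pairing (adjusted p = 0.0648). The ANKRD1 difference was called without a filter (adjusted p = 0.00882) and with crossed pairing (-0.88, adjusted p = 0.00367). In the pathway lists after siRNA, the counts of kinase list genes, scaffolds and further targets were 1, 0 and 3 as reported, 4, 2 and 6 without a filter, 2, 1 and 4 with the study's filter, and 0, 0 and 1 with the replicate block. The shares of all genes called were 3.41% as reported, 5.32% without a filter, 6.58% with the study's filter and 0.658% with the replicate block. With all 8 libraries 5 kinase list genes, 2 scaffolds, 4 further targets and 2 TEAD or VGLL genes (TEAD3 and VGLL4) were called. In that fit 12.6% of all genes were called after siRNA.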
